A study of Homo sapiens with 24 samples.

Results

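The S100 calcium-binding proteins and the acute-phase serum amyloid A proteins are described here as a set of 10 genes, S100A2, S100A4, S100A6, S100A8, S100A9, S100A10, S100A14, S100P, SAA1 and SAA2, which were picked by gene name from the 58735 genes of the count table. RNA was sequenced from SAS cells, a human oral squamous cell carcinoma line, carrying NRF2 (the product of NFE2L2) either with the E79Q substitution or as wild type (WT). Each genotype received radiation plus CB-839, radiation alone, CB-839 alone or neither, which gives 8 groups of 3 libraries and 24 libraries in all. Radiation was 4 Gy of X-rays. CB-839, an inhibitor of glutaminase, was given at 0.1 µM, and drug or vehicle was added 24 hours ahead of radiation, with RNA taken 24 hours after it. The groups without drug or radiation carry the label of controls and are called untreated. The labels do not say how the E79Q cells were made, whether they are a single clone, whether replicates were separate cultures, or whether the unirradiated libraries were prepared together with the irradiated ones. The p-values therefore measure the spread between these libraries, which may be technical.

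S100 proteins are small EF-hand proteins that change shape on binding calcium and then dock onto other proteins. S100A8 and S100A9 pair into calprotectin, which is best known from neutrophils and monocytes, signals through TLR4 and RAGE, and is also made by keratinocytes under stress. SAA1 and SAA2 are acute-phase proteins made mainly by the liver in response to IL-6 and IL-1, and epithelia can make them too. S100A2 and S100A14 are known from stratified epithelia, S100A10 binds annexin A2 at the plasma membrane, and S100A6, S100A4 and S100P act inside and outside cells and have been studied in tumor spread. Most S100 genes lie in a cluster on chromosome 1 beside the epidermal differentiation genes, while S100P lies on chromosome 4 and the SAA genes on chromosome 11. On GRCh38, S100A9 (ENSG00000163220) spans chr1:153357854-153361027 on the plus strand. S100A8 (ENSG00000143546) at chr1:153390032-153391188, S100A6 (ENSG00000197956) at chr1:153534599-153536244, S100A4 (ENSG00000196154) at chr1:153543613-153550136, S100A2 (ENSG00000196754) at chr1:153561108-153567890 and S100A14 (ENSG00000189334) at chr1:153614255-153616986 follow it on the minus strand, and S100A10 (ENSG00000197747) lies apart at chr1:151982915-151994390. S100P (ENSG00000163993) is at chr4:6693069-6697170, SAA2 (ENSG00000134339) at chr11:18239223-18248643 on the minus strand and SAA1 (ENSG00000173432) at chr11:18266174-18269977 on the plus strand.

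Libraries held between 14285084 and 23640197 counts, of which 1.93% to 3.55% were mitochondrial. AKR1C1, an aldo-keto reductase known as an NRF2 target, was higher in E79Q than in WT cells under all 4 treatments (log2 fold changes between 2.10 and 3.47, adjusted p between 7.68e-20 and 2.33e-15). AKR1C1 was 1 of 3 genes set as a check of the labels, with NQO1 and NFE2L2. With both treatments edgeR called 2 higher in E79Q cells and 1 lower (adjusted p under 0.05), beside 4.4% and 2.86% of all genes. In untreated cells it called 2 higher and 1 lower, beside 9.62% and 10.1%. It called 2 higher and 0 lower under radiation, beside 4.69% and 4.95%, and likewise under CB-839, beside 8.3% and 6.72%. E79Q is a point mutation, which the NFE2L2 read count cannot check. The squamous markers were present, with KRT5 between 662 and 1488 CPM (reads scaled to the library's size). The 7 markers of squamous epithelium summed to 1180 to 1461 CPM in E79Q libraries and 1691 to 2220 CPM in WT libraries, and these ranges did not overlap. Of the leukocyte markers, CSF3R had 0 reads in all 24 libraries and PTPRC and LYZ at most 1 read in any. CD14 reached 3.55 CPM and 62 reads in a library, MPO 1.47 CPM and 26 reads, ITGAM 13 reads and CD68 6 reads. Of the hepatocyte markers, TTR had 0 reads throughout, ALB at most 3 and APOA1 at most 7 in any library. Fibroblast markers summed to 0.467 to 2.03 CPM and endothelial markers to 1.35 to 4.96 CPM. In 1 library, replicate 2 of E79Q cells given radiation plus CB-839, deviations from the group followed the GC content of the genes (Pearson's r of 0.479 across genes). It alone passed the threshold of 0.4 in absolute r, while replicate 1 of the same group had r = -0.38. Deviations were taken from the mean of 3 libraries, so a shift in 1 pushes the others the opposite way. Which of these libraries departed was not tested. Called results of the members that rest on replicate 2, named the GC-dependent library, are given with and without it.

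The members differed widely in level. Per kilobase of exon, and averaged over the 24 libraries, S100A2 stood highest with 296 CPM per kb, followed by S100A10 with 165, S100A6 with 138 and S100A14 with 125 CPM per kb. S100A9 averaged 24.1 and SAA1 3.92 CPM per kb. At the low end S100A4 averaged 1.05, SAA2 0.451, S100A8 0.128 and S100P 0.0343 CPM per kb. S100A8 and S100P did not pass the filter on low counts, so 8 of the 10 members entered the test.

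**Figure D1:**
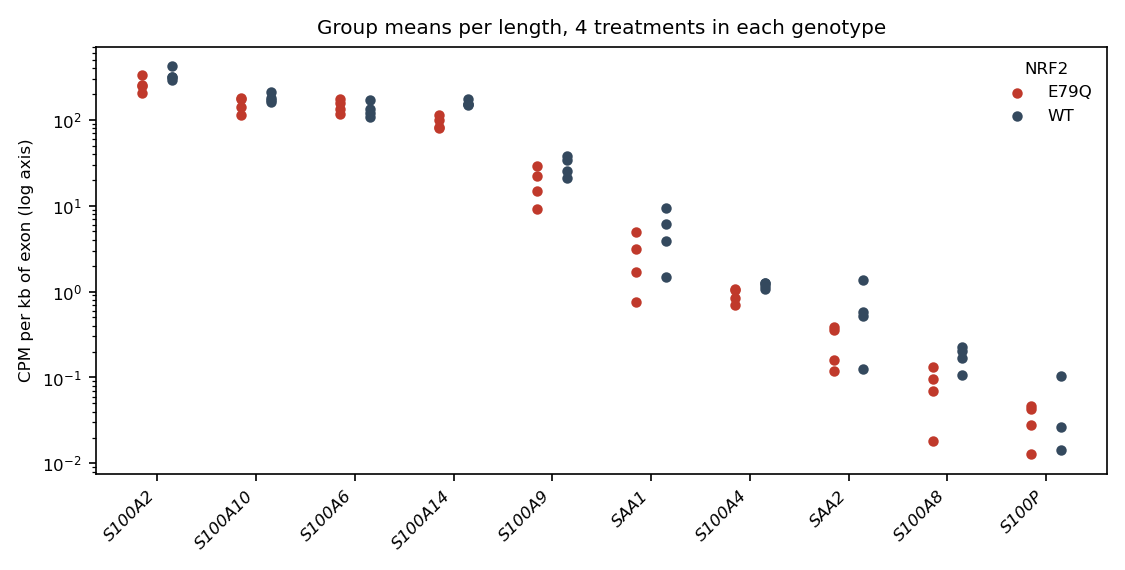
Group means of the 10 members in CPM per kilobase of exon on a log axis, with the 4 treatments of E79Q cells as red points left of those of WT cells as dark points. S100A2 leads at 296 CPM per kb over all libraries and S100P ends the row at 0.0343, and its WT group with radiation plus CB-839, at 0 reads, cannot be drawn on this axis.

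S100A8 had 0 to 9 reads in a library. It summed to 18 reads in the 12 E79Q libraries, with 5 of them at 0, and to 40 reads in the 12 WT libraries, with 1 at 0. The mean difference of E79Q minus WT libraries was -0.0977 CPM, and an exact permutation test of the genotype labels within treatments, two-sided, gave p = 0.06845. S100P had 0 to 5 reads, in all 9 reads in E79Q libraries and 10 in WT libraries (exact permutation p = 0.924). At this depth neither genotype difference reached p under 0.05 in the permutation test. S100A8 reads were nevertheless fewer in E79Q than in WT cells under each treatment. S100A9 was read far more often than its partner S100A8, with 282 reads against 5 over the 3 untreated E79Q libraries and 788 against 11 over the 3 untreated WT libraries.

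Promoter sequences from RefSeq on GRCh38.p14 were found for 8 of the 10 members, with 11 start sites. SAA1 and SAA2 had no entry, so their promoters were not searched. Those of S100A9, S100A14 and the upstream start of S100A2 are shown because these are the members with the clearest genotype or drug differences and a match to a searched motif. Each runs 5′ to 3′ on the gene's own strand and covers the 250 bases before the annotated start. Capitals mark the TATA box TATAAA (read on the gene's strand only), the AP-1 motif TGANTCA or the antioxidant response element core TGACNNNGC (both on either strand). NRF2 with small MAF proteins can bind the antioxidant response element, whose core begins as the AP-1 motif does.
S100A9, chr1:153357604-153357853, plus strand: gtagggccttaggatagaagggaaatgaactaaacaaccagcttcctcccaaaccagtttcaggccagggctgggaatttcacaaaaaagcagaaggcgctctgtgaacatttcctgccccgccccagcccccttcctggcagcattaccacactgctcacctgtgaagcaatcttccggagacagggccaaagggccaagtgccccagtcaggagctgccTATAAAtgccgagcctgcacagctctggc
S100A14, chr1:153616326-153616575, minus strand: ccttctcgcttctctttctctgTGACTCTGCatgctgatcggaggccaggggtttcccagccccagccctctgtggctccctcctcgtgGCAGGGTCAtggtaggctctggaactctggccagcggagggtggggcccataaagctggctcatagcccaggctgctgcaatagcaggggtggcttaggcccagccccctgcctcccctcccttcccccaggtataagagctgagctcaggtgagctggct
S100A2, chr1:153565845-153566094, minus strand: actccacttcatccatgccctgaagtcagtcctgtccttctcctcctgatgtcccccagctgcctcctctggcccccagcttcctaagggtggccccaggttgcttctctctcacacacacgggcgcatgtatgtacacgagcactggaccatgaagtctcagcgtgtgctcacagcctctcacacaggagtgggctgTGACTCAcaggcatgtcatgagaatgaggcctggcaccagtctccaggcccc

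The S100A9 window holds a TATA box 29 bases before the start. S100A14 holds 2 matches to the antioxidant response element core, TGACTCTGC at 228 bases and GCAGGGTCA, on the opposite strand, at 161 bases before its start. S100A2 holds the AP-1 motif 52 bases before its start. Among 35116 promoters of the same length, 10.9% held the antioxidant response element core, 6.57% the AP-1 motif and 6.8% the TATA box. S100A4, S100P and S100A8 also held a match to the TATA box. In S100A8 the same TATAAA fell in the overlapping windows of 2 of the 3 starts, 29 and 126 bases before them. NF-kB (in 1.26% of all promoters), C/EBP (TTNNGCAA, 9.05%) and STAT (TTCNNNGAA, 6.57%) motifs, searched on both strands, had no match in these 11 windows. None of these windows belongs to SAA1 or SAA2, so the result says nothing of those genes.

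In each comparison, members were called at an adjusted p under 0.05 by edgeR's quasi-likelihood test over all 15956 genes tested. In E79Q against WT cells, no member was called higher under any treatment. With radiation plus CB-839, 2 members were lower, beside 4.4% of all genes higher, 2.86% lower and 7.26% called in either direction. Under radiation alone 5 were lower, beside 4.69% higher, 4.95% lower and 9.64% either way over all genes. Under CB-839 alone 4 were lower, beside 8.3%, 6.72% and 15% in the same order. In untreated cells 5 were lower, beside 9.62%, 10.1% and 19.7%. The members called lower were S100A9, SAA1, SAA2, S100A14 and S100A10 in untreated cells, S100A9, S100A14, S100A2 and S100A10 under CB-839, S100A9, SAA1, SAA2, S100A14 and S100A2 under radiation, and S100A14 and S100A2 with both.

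Radiation against none called more members higher than lower. In E79Q cells given CB-839, 5 members were higher and 1 lower, beside 15.3% of all genes higher, 13.9% lower and 29.2% either way. In WT cells given CB-839, 4 were higher and 1 lower, beside 13.2%, 10.4% and 23.7% in the same order. Without drug, 4 were higher and 1 lower in E79Q cells, beside 12.2%, 10.1% and 22.3%, and 4 higher and 2 lower in WT cells, beside 9.41%, 8.49% and 17.9%. Without replicate 3 of irradiated WT cells the count in WT cells was 3 instead of 6.

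CB-839 called as many members in both genotypes without radiation, with a different split by direction. With radiation it called more in E79Q than in WT cells when all 24 libraries were fitted, as it did over all genes. That order reversed with only the 2 groups of each comparison fitted, at 2 members in E79Q and 4 in WT cells. Without the GC-dependent library 4 were called in irradiated WT cells. In irradiated E79Q cells CB-839 called 3 members higher and 2 lower, beside 12.9% of all genes higher, 13.1% lower and 26% either way. In irradiated WT cells it called 2 lower, beside 4.99%, 4.53% and 9.53%. In unirradiated E79Q cells 3 were higher and 2 lower, beside 9.44%, 10.4% and 19.8%, and in unirradiated WT cells 1 was higher and 4 lower, beside 6.35%, 8.44% and 14.8%. Whether the responses differed was tested as E79Q minus WT. For CB-839 without radiation this difference was called for 6 members, 4 positive and 2 negative, beside 7.46% of all genes positive, 6.83% negative and 14.3% either way. For CB-839 with radiation it was called for 2, both positive, beside 1.26%, 0.652% and 1.91%. For radiation with CB-839 it was called for 1, S100A10, positive, beside 0.363%, 0.714% and 1.08%. For radiation without drug edgeR called 0, with 2 members at an unadjusted p under 0.05, DESeq2 and limma-voom called 0, and 0.815% of all genes were positive, 0.445% negative and 1.26% either way. The comparisons share libraries, so these counts are not separate lines of evidence.

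**Figure D2:**
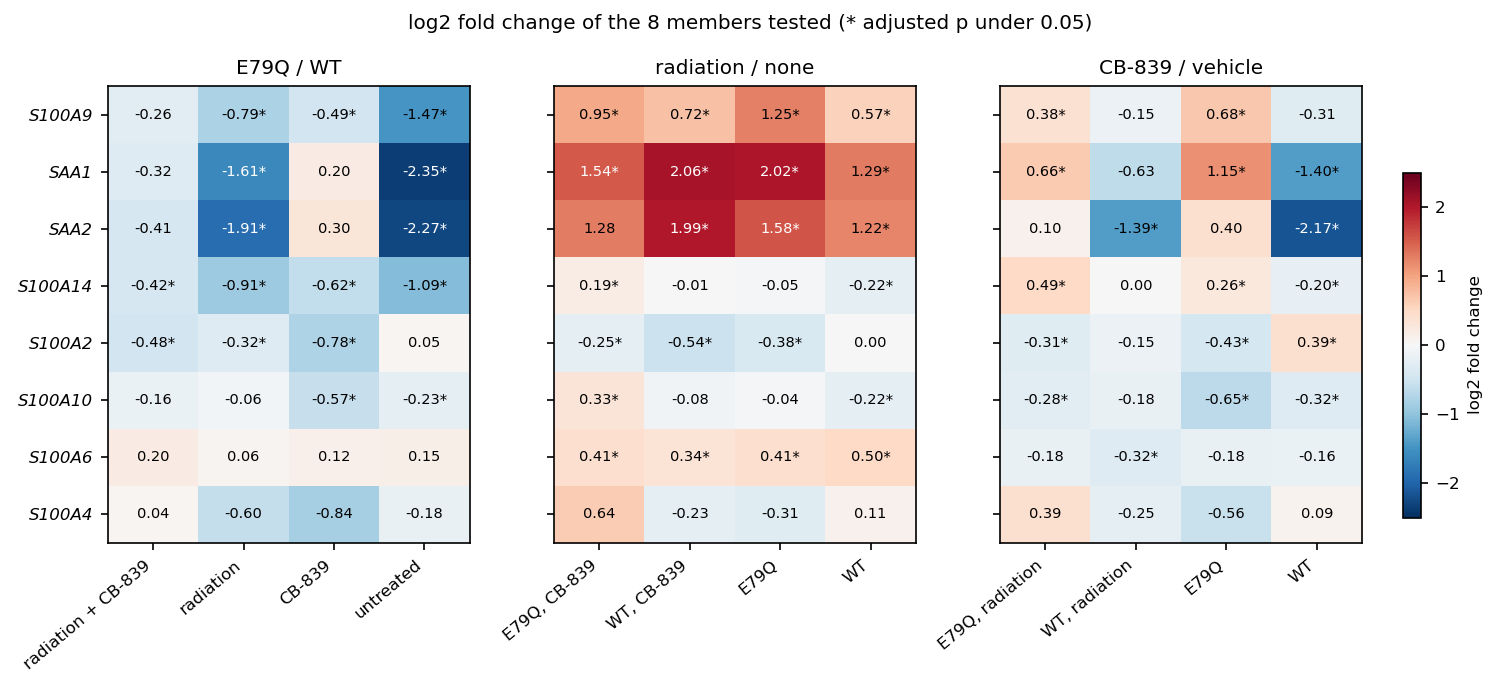
Log2 fold changes of the 8 members tested (down the page) in 12 comparisons, with E79Q over WT on the left, radiation over none in the middle and CB-839 over vehicle on the right, where color gives the size and a star marks an adjusted p under 0.05. The left panel is blue or pale for S100A9, SAA1, SAA2 and S100A14, from -2.35 for SAA1 in untreated cells, and the first 3 of these are red throughout the middle panel.

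S100A9, the partner of S100A8 in calprotectin, was lower in E79Q than in WT cells except under the combined treatment, and radiation raised it in every setting. In cells given both treatments it stood at 14.3, 20.2 and 14.9 CPM in E79Q libraries, against 21.2, 21.4 and 16.5 CPM in WT libraries. These overlap. Under radiation alone it had 11.9, 13.8 and 12.5 CPM in E79Q libraries and 22.3, 23.9 and 19.4 CPM in WT libraries. Under CB-839 alone it had 7.86, 8.49 and 9.16 CPM in E79Q libraries and 9.76, 12.1 and 14.0 CPM in WT libraries. Untreated E79Q libraries had 5.06, 5.94 and 4.98 CPM, and untreated WT libraries 16.2, 13.1 and 15.03 CPM. All E79Q libraries lay below all WT libraries in these last 3 settings.

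The genotype gap in S100A9 was widest in untreated cells, at 5.33 ± 0.53 CPM in E79Q and 14.8 ± 1.59 CPM in WT cells (SD, n = 3 each), or -1.47 on the log2 scale (SE 0.155, edgeR adjusted p = 4.77e-08). It was -0.79 under radiation (adjusted p = 0.000112), -0.49 under CB-839 (adjusted p = 0.0271) and -0.26 with both (adjusted p = 0.277). The call under CB-839 was lost without replicate 2 or 3 of the WT cells given CB-839 (adjusted p = 0.065 and 0.177), without replicate 1 or 2 of the E79Q cells given it (0.095 and 0.0783), and by limma-voom (0.0643). Without the GC-dependent replicate 2, the gap under the combined treatment was -0.44 (adjusted p = 0.0226). Summed leukocyte markers were 1.13 to 2.12 CPM in untreated E79Q libraries and 3.46 to 4.58 CPM in untreated WT libraries, mostly CD14, and 1 of the 2 markers tested was lower in E79Q cells. PTPRC, LYZ and CSF3R were at or near 0 reads, while CD14, MPO, ITGAM and CD68 had the reads given above. All libraries were labelled as cells of the SAS line. In such bulk samples fewer cells with S100A9 RNA and less of it per cell cannot be told apart.

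Radiation raised S100A9 by 0.95 in E79Q cells and 0.72 in WT cells given CB-839, and by 1.25 in E79Q cells and 0.57 in WT cells without drug (log2 fold changes, adjusted p = 2.27e-05, 0.000257, 8.89e-07 and 0.00276). Irradiated libraries lay above their unirradiated counterparts without overlap in each of these 4 pairs. Between genotypes this response differed by 0.68 without drug, which was not called (adjusted p = 0.118). It was called without the GC-dependent library (0.67, adjusted p = 0.0347), without a filter on low counts (0.0338) and when the 4 groups were fitted alone (0.00817). CB-839 raised S100A9 in unirradiated E79Q cells by 0.68 (SE 0.166, adjusted p = 0.00415), and was -0.31 in unirradiated WT cells (adjusted p = 0.153). That genotype difference, 0.99, was called (SE 0.217, adjusted p = 0.00238). Without the GC-dependent library the radiation response in E79Q cells given CB-839 was 0.78 (adjusted p = 0.00011). In irradiated E79Q cells the drug response of 0.38 (adjusted p = 0.0378) was 0.21 (adjusted p = 0.303) without the GC-dependent library, and was also lost without replicate 1 or 3 of the irradiated E79Q cells (adjusted p = 0.121 and 0.0809) and with the 2 groups fitted alone (0.114).

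**Figure D3:**
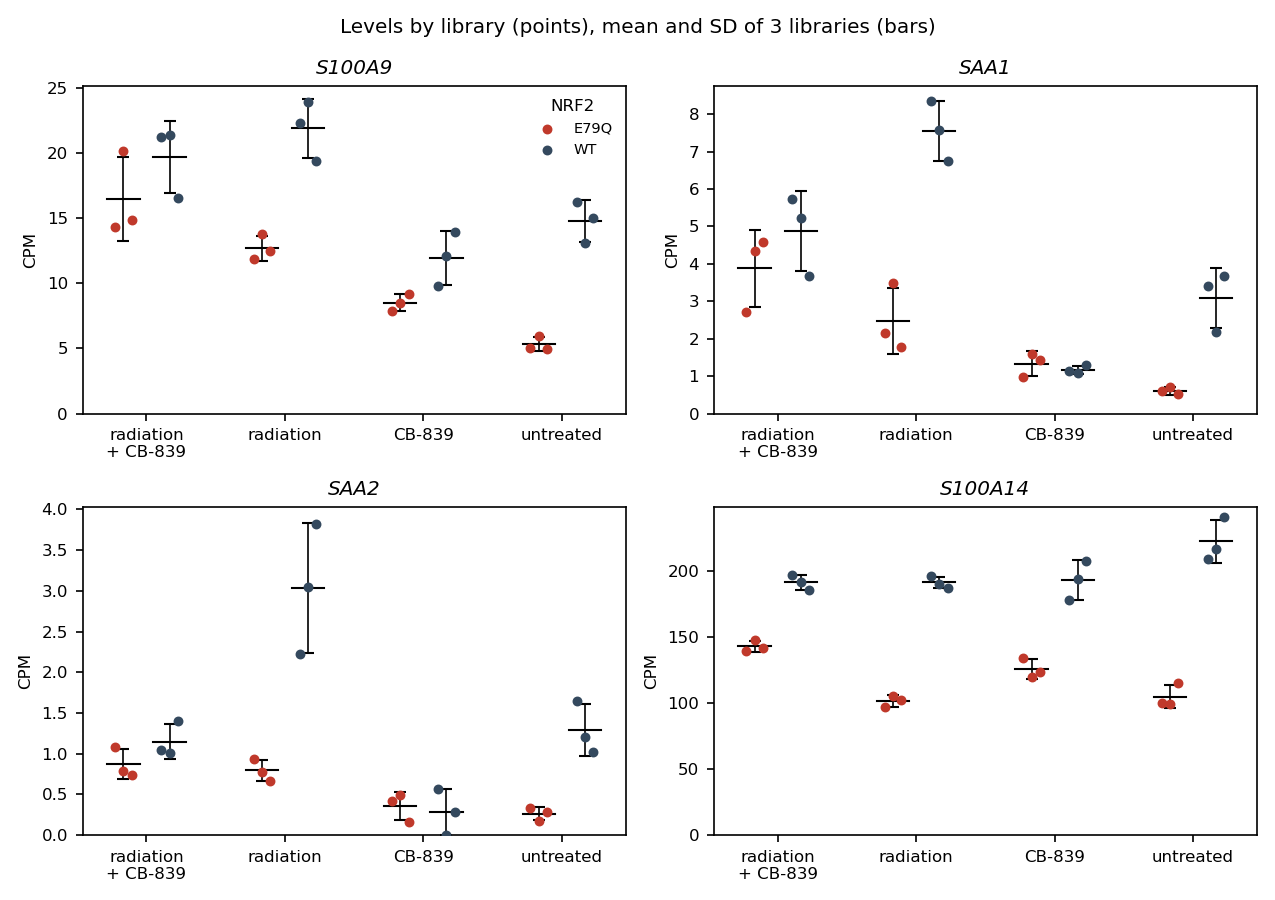
CPM of S100A9, SAA1, SAA2 and S100A14 in each of the 24 libraries (points), with the mean and SD of 3 libraries, for E79Q cells (red) left of WT cells (dark) under 4 treatments. Untreated E79Q cells are low for all 4 genes, and under CB-839 alone the SAA1 means of 1.33 in E79Q and 1.17 CPM in WT cells lie side by side.

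SAA1 showed the widest range of the members tested, 12.5-fold between its lowest and highest group means. It had 9 to 165 reads in a library, and its lowest mean, in untreated E79Q cells, rests on 11, 12 and 9 reads. In cells given both treatments it had 2.71, 4.35 and 4.58 CPM in E79Q libraries and 5.73, 5.23 and 3.67 CPM in WT libraries, which overlap. Under radiation alone it had 2.16, 3.48 and 1.78 CPM in E79Q libraries, all below the 8.36, 7.57 and 6.75 CPM of WT libraries. Under CB-839 alone it had 0.965, 1.60 and 1.43 CPM in E79Q libraries and 1.13, 1.09 and 1.29 CPM in WT libraries, again overlapping. Untreated E79Q libraries had 0.599, 0.705 and 0.509 CPM and untreated WT libraries 3.41, 2.18 and 3.69 CPM, with no overlap.

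The fold change of SAA1 in E79Q over WT cells was -2.35 in untreated cells (log2, SE 0.324, adjusted p = 4.23e-06) and -1.61 under radiation (SE 0.228, adjusted p = 9.99e-06). It was 0.20 under CB-839 (adjusted p = 0.773) and -0.32 with both (adjusted p = 0.468). Radiation raised SAA1 in all 4 settings, by 1.54 in E79Q and 2.06 in WT cells given CB-839, and by 2.02 in E79Q and 1.29 in WT cells without it (adjusted p between 2.1e-06 and 0.000153), where the 1.54 was 1.45 without the GC-dependent library (adjusted p = 0.000487). No genotype difference in that response was called, at -0.52 with drug (adjusted p = 0.727) and 0.73 without it (adjusted p = 0.556). Hepatocyte markers summed to at most 0.297 CPM in any library.

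CB-839 moved SAA1 in opposite directions in the unirradiated genotypes. It was higher in E79Q cells, at 1.33 ± 0.329 CPM with drug and 0.604 ± 0.0981 CPM with vehicle (log2 fold change 1.15, SE 0.374, adjusted p = 0.03), and lower in WT cells, at 1.17 ± 0.11 CPM with drug and 3.09 ± 0.803 CPM with vehicle (-1.40, SE 0.286, adjusted p = 0.00101; SD, n = 3 each). The difference between genotypes was 2.55 (SE 0.471, adjusted p = 0.000406), and with the drug the libraries of the genotypes overlapped. The call in E79Q cells was lost by limma-voom (adjusted p = 0.107), without replicate 1 or 3 of the untreated E79Q cells (0.0862 and 0.106) and without replicate 2 or 3 of the E79Q cells given CB-839 (0.128 and 0.0929). That in WT cells, and the difference, were lost under none of the alternatives run.

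In irradiated cells the drug responses of SAA1 were 0.66 in E79Q cells (adjusted p = 0.0424, with overlapping libraries) and -0.63 in WT cells (adjusted p = 0.0575, without overlap), and their difference was 1.29 (SE 0.32, adjusted p = 0.0301). The E79Q call was lost without replicate 1 or 3 of the irradiated E79Q cells (adjusted p = 0.144 and 0.173). It was lost without replicate 2, the GC-dependent library, or 3 of those with both treatments (adjusted p = 0.13 and 0.143). It was also lost with the 2 groups fitted alone (0.148) and with a replicate block (0.0513). Without the GC-dependent library the log2 fold change was 0.58. Without replicate 2 of the irradiated E79Q cells it was 0.99 (adjusted p = 0.00808). The WT response was called without replicate 2 of the irradiated E79Q cells (adjusted p = 0.0467), without replicate 1 or 2 of the E79Q cells with both treatments (0.0362 and 0.0316), by limma-voom (0.0229), without a filter (0.018) and with the 2 groups alone (0.0175). The difference was 1.21 (adjusted p = 0.0391) without the GC-dependent library, and lost its call with the 4 groups fitted alone (adjusted p = 0.1). Among single libraries, it was lost without replicate 1 or 2 of irradiated WT cells (adjusted p = 0.0918 and 0.069), replicate 1 or 3 of irradiated E79Q cells (0.111 and 0.0999), replicate 2 or 3 of WT cells with both treatments (0.0527 and 0.0964) or replicate 3 of E79Q cells with both (0.0962).

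SAA2 followed a like order at a lower level, with 0 to 64 reads in a library. Its transcripts resemble those of SAA1, since 402 of the 862 windows of 50 bases in SAA1 transcripts (46.6%) also occur in SAA2, and 12% of its exonic bases overlap the SAA2-SAA4 readthrough gene, so the split of reads between the SAA genes is uncertain. With radiation plus CB-839 it had 1.08, 0.786 and 0.738 CPM in E79Q libraries and 1.04, 1.005 and 1.40 CPM in WT libraries. Under radiation it had 0.933, 0.778 and 0.668 CPM in E79Q libraries, below the 2.23, 3.05 and 3.83 CPM of WT libraries. The E79Q libraries with CB-839 held 0.414, 0.492 and 0.166 CPM and the WT libraries with CB-839 held 0.564, 0 and 0.281 CPM. Untreated E79Q libraries had 0.326, 0.176 and 0.283 CPM, below the 1.65, 1.20 and 1.02 CPM of untreated WT libraries.

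SAA2 was lower in E79Q than in WT cells by -1.91 under radiation (log2, SE 0.372, adjusted p = 0.000673) and -2.27 in untreated cells (SE 0.495, adjusted p = 0.00138), with 0.30 under CB-839 and -0.41 with both (adjusted p = 0.821 and 0.636). CB-839 lowered it in WT cells, by -1.39 with radiation (adjusted p = 0.0133) and -2.17 without (adjusted p = 0.0026), and gave 0.10 and 0.40 in E79Q cells (adjusted p = 0.892 and 0.71). The irradiated WT call was lost without replicate 3 of irradiated WT cells (adjusted p = 0.0942) or replicate 1 of those with both treatments (0.0707). Between genotypes the unirradiated drug response differed by 2.57 (SE 0.806, adjusted p = 0.0314). It was lost without replicate 1 of untreated WT cells (adjusted p = 0.0724), replicate 2 or 3 of untreated E79Q cells (0.0699 and 0.0526), replicate 2 or 3 of WT cells given CB-839 (0.0585 and 0.0571) or replicate 1 or 2 of E79Q cells given it (0.0768 and 0.128). Without replicate 1 of the WT cells given CB-839 it was 3.52 and the WT drug response itself -3.13, and limma-voom gave 3.18 and -2.89.

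Radiation gave SAA2 log2 fold changes of 1.28 in E79Q cells (adjusted p = 0.0554) and 1.99 in WT cells (adjusted p = 0.00386) given CB-839, and of 1.58 in E79Q cells (adjusted p = 0.029) and 1.22 in WT cells (adjusted p = 0.0165) without it. The 1.28 was called by DESeq2 (adjusted p = 0.0283), with upper-quartile factors (0.049) and without replicate 1 or 2 of the WT cells given CB-839 (0.038 and 0.0218). The 1.99 was 2.96 without replicate 1 of the WT cells given CB-839, and 2.73 by limma-voom. The 1.58 lost its call by limma-voom (adjusted p = 0.0673), without replicate 1, 2 or 3 of untreated E79Q cells (0.0541, 0.107 and 0.0693) and without replicate 1 or 2 of irradiated E79Q cells (0.102 and 0.0585). The 1.22 lost it without replicate 2 or 3 of untreated WT cells (0.0627 and 0.0783) or replicate 3 of irradiated WT cells (0.0979).

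Other acute-phase genes and members of the IL-6 and IL-1 pathway were taken as a list of 25, of which 15 were tested. In untreated E79Q against WT cells, 1 was higher and 8 lower, beside 9.62% of all genes higher and 10.1% lower, with a median log2 fold change of -0.23 beside -0.01 over all genes. Among them were CEBPD, a transcription factor of the acute-phase response (47.6 CPM in E79Q and 121 CPM in WT cells, -1.34), the complement component C3 (22.9 and 45.6 CPM, -0.99) and the protease inhibitor A2M (6.07 and 15.5 CPM, -1.35; adjusted p between 1.65e-11 and 1.14e-10). Under CB-839, 6 were higher and 2 lower, beside 8.3% and 6.72% of all genes, with IL1A at 0.76 and IL6 at 1.02 (adjusted p = 9.03e-07 and 0.000152). Under radiation 3 were higher and 5 lower, beside 4.69% and 4.95% of all genes, and LCN2, an iron-binding protein released in inflammation, was at -2.61 (0.66 CPM in E79Q and 3.98 CPM in WT cells, adjusted p = 1.05e-05). With both treatments 6 were higher and 1 lower, beside 4.4% and 2.86% of all genes.

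Radiation called 12 of these 15 higher and 0 lower in E79Q cells given CB-839, beside 15.3% of all genes higher and 13.9% lower, where edgeR had the median at 0.47. In WT cells given the drug it called 11 higher and 0 lower by edgeR, beside 13.2% and 10.4% of all genes, with a median of 0.70. Without drug it called 11 higher and 1 lower in E79Q cells, beside 12.2% and 10.1% of all genes, and 10 higher and 1 lower in WT cells, beside 9.41% and 8.49%, with medians of 0.73 and 0.49. C3 had log2 fold changes of 1.32 in E79Q and 1.35 in WT cells with CB-839, and of 1.47 in E79Q and 0.88 in WT cells without it. CEBPD went the other way without drug, at -0.50 in E79Q and -1.04 in WT cells. CB-839 called 3 higher and 3 lower in unirradiated E79Q cells, beside 9.44% and 10.4% of all genes, and 11 lower in unirradiated WT cells, beside 8.44%, with a median of -0.50. E79Q minus WT, this drug response was positive and called for 9 of the 15, beside 7.46% of all genes, among them C3 at 1.32, A2M at 1.85 and CEBPB at 0.61 (adjusted p between 1.82e-10 and 0.000141). With radiation it was positive and called for 3, beside 1.26% of all genes, namely A2M at 1.23, C3 at 0.70 and CEBPD at 0.55 (adjusted p = 3.05e-06, 3.3e-05 and 0.0288).

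S100A14, an S100 protein of epithelial cells that binds calcium only weakly, was lower in E79Q cells under every treatment, and no E79Q library reached any WT library of the same treatment. With radiation plus CB-839 it had 139, 148 and 142 CPM in E79Q libraries and 197, 192 and 186 CPM in WT libraries. Under radiation it had 97.0, 105 and 103 CPM in E79Q libraries and 196, 191 and 188 CPM in WT libraries. The libraries with CB-839 held 134, 120 and 124 CPM in E79Q and 178, 194 and 208 CPM in WT cells. Untreated libraries held 100.01, 99.5 and 115 CPM in E79Q and 209.7, 217 and 241 CPM in WT cells. The highest group mean was that of untreated WT cells, 223 ± 16.4 CPM, and the lowest that of irradiated E79Q cells, 102 ± 4.26 CPM (SD, n = 3 each).

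The log2 fold change of S100A14 in E79Q over WT cells was -0.42 with both treatments (SE 0.065, adjusted p = 5.84e-05), -0.91 under radiation (SE 0.0658, adjusted p = 5.69e-11), -0.62 under CB-839 (SE 0.0657, adjusted p = 5.41e-08) and -1.09 in untreated cells (SE 0.0661, adjusted p = 1.06e-12). None of these calls was lost under the alternatives run. CB-839 raised S100A14 in E79Q cells, by 0.49 with radiation (adjusted p = 3.77e-06) and 0.26 without (adjusted p = 0.00541). In WT cells the drug gave 0.00 with radiation (adjusted p = 0.992) and -0.20 without (adjusted p = 0.0323). The genotype difference in the drug response was 0.49 with radiation (SE 0.0922, adjusted p = 0.00298) and 0.47 without (SE 0.0927, adjusted p = 0.000884), and it was called under all alternatives run. The drug response of 0.49 in irradiated E79Q cells likewise kept its call under all alternatives run. Without the GC-dependent library the genotype fold change with both treatments was -0.45 (adjusted p = 9.65e-06), the drug response in irradiated E79Q cells 0.48 (adjusted p = 2.58e-06) and its genotype difference 0.47 (adjusted p = 0.00181).

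The other called effects of the drug or of radiation on S100A14 each lost their call under some alternatives. The unirradiated drug call in E79Q cells was lost without replicate 1 of the E79Q cells given CB-839 (adjusted p = 0.0555). The call in WT cells was lost without replicate 2 or 3 of untreated WT cells (adjusted p = 0.0504 and 0.215), replicate 1 or 2 of WT cells given CB-839 (0.201 and 0.0883) and without a filter (0.0501). Radiation gave 0.19 in E79Q cells given CB-839 (adjusted p = 0.0343) and -0.22 in WT cells without it (adjusted p = 0.019). The first was lost without replicate 2 or 3 of the E79Q cells given CB-839 (adjusted p = 0.156 and 0.0994), without the GC-dependent library (0.0898) and with the 2 groups alone (0.139). The other was lost without replicate 3 of untreated WT cells (adjusted p = 0.139) or replicate 2 or 3 of irradiated WT cells (0.0593 and 0.0681).

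Squamous and epidermal differentiation genes, a list of 24 of which 14 were tested, were called lower more often than higher in E79Q against WT cells. With both treatments 3 were lower and 0 higher by edgeR, beside 2.86% of all genes lower and 4.4% higher. Under radiation 6 were lower and 0 higher by edgeR, beside 4.95% and 4.69% of all genes, and under CB-839 4 were lower and 1 higher, beside 6.72% and 8.3%. In untreated cells 8 were lower and 0 higher by edgeR, beside 10.1% and 9.62% of all genes, and the median was -0.78 beside -0.01 over all genes. KRT17, a stress keratin, had 173 CPM in untreated E79Q and 450.4 CPM in untreated WT cells (-1.38, adjusted p = 1.78e-13). KLK5, a skin kallikrein, had 49.5 CPM in E79Q and 103 CPM in WT cells (-1.06, adjusted p = 2.81e-11). The 7 squamous markers were all lower in untreated E79Q cells. The part of this shift in the S100 results was not tested. S100A6 and S100A2 were not called between the genotypes in untreated cells.

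S100A2, a mostly nuclear S100 protein of basal epithelial cells, was the most abundant member per length and was highest in WT cells given CB-839. Under the combined treatment it had 297, 361 and 303 CPM in E79Q libraries, all below the 482, 451 and 411 CPM of WT libraries. Under radiation it had 378, 413 and 399 CPM in E79Q libraries, all below the 506, 503 and 479.9 CPM of WT libraries. Under CB-839 it had 415, 362 and 368 CPM in E79Q libraries, all below the 555, 655 and 749 CPM of WT libraries. In untreated cells the 526, 469 and 548 CPM of E79Q libraries overlapped the 472, 477 and 543 CPM of WT libraries.

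The genotype log2 fold change of S100A2 was -0.48 with both treatments (SE 0.0882, adjusted p = 0.000497), -0.32 under radiation (SE 0.0879, adjusted p = 0.0155), -0.78 under CB-839 (SE 0.0883, adjusted p = 2.03e-07) and 0.05 in untreated cells (adjusted p = 0.764). Without the GC-dependent library the first of these was -0.59 (adjusted p = 4.89e-06). The call under radiation was lost without replicate 1 of the irradiated WT cells (adjusted p = 0.0618) or of the irradiated E79Q cells (0.0826). CB-839 lowered S100A2 in unirradiated E79Q cells by -0.43 (adjusted p = 0.000754) and raised it in unirradiated WT cells by 0.39 (adjusted p = 0.00229), and the difference was -0.83 (SE 0.124, adjusted p = 3.38e-05). In irradiated cells the drug gave -0.31 in E79Q cells (adjusted p = 0.0111) and -0.15 in WT cells (adjusted p = 0.302). The -0.31 was lost without replicate 2 of irradiated E79Q cells (adjusted p = 0.0705) or replicate 1 or 3 of those with both treatments (0.0546 and 0.0719), and was -0.39 without the GC-dependent library (adjusted p = 0.0008).

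Radiation lowered S100A2 in 3 of the 4 settings, by -0.25 in E79Q cells (adjusted p = 0.033) and -0.54 in WT cells (adjusted p = 4.14e-05) given CB-839 and by -0.38 in E79Q cells without it (adjusted p = 0.0024), while untreated and irradiated WT cells had means of 497 and 496 CPM. The -0.25 was -0.34 without the GC-dependent library (adjusted p = 0.00315). It lost its call without any 1 of 14 libraries (adjusted p between 0.0509 and 0.207), with upper-quartile factors (0.0653) and with the 2 groups fitted alone (0.0879). Those libraries were replicates 1 and 2 of untreated and 2 and 3 of irradiated WT cells, replicate 1 of untreated and replicates 1, 2 and 3 of irradiated E79Q cells, replicates 1 and 3 of E79Q cells given CB-839 or both treatments, and replicate 2 of WT cells given CB-839 or both. The genotype difference without drug, -0.37, was not called (adjusted p = 0.18) but was called without the GC-dependent library (adjusted p = 0.0374), without a filter (0.000753) and with the 4 groups alone (0.000396). With drug the difference was 0.29 (adjusted p = 0.444), and 0.32 without a filter (adjusted p = 0.02).

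**Figure D4:**
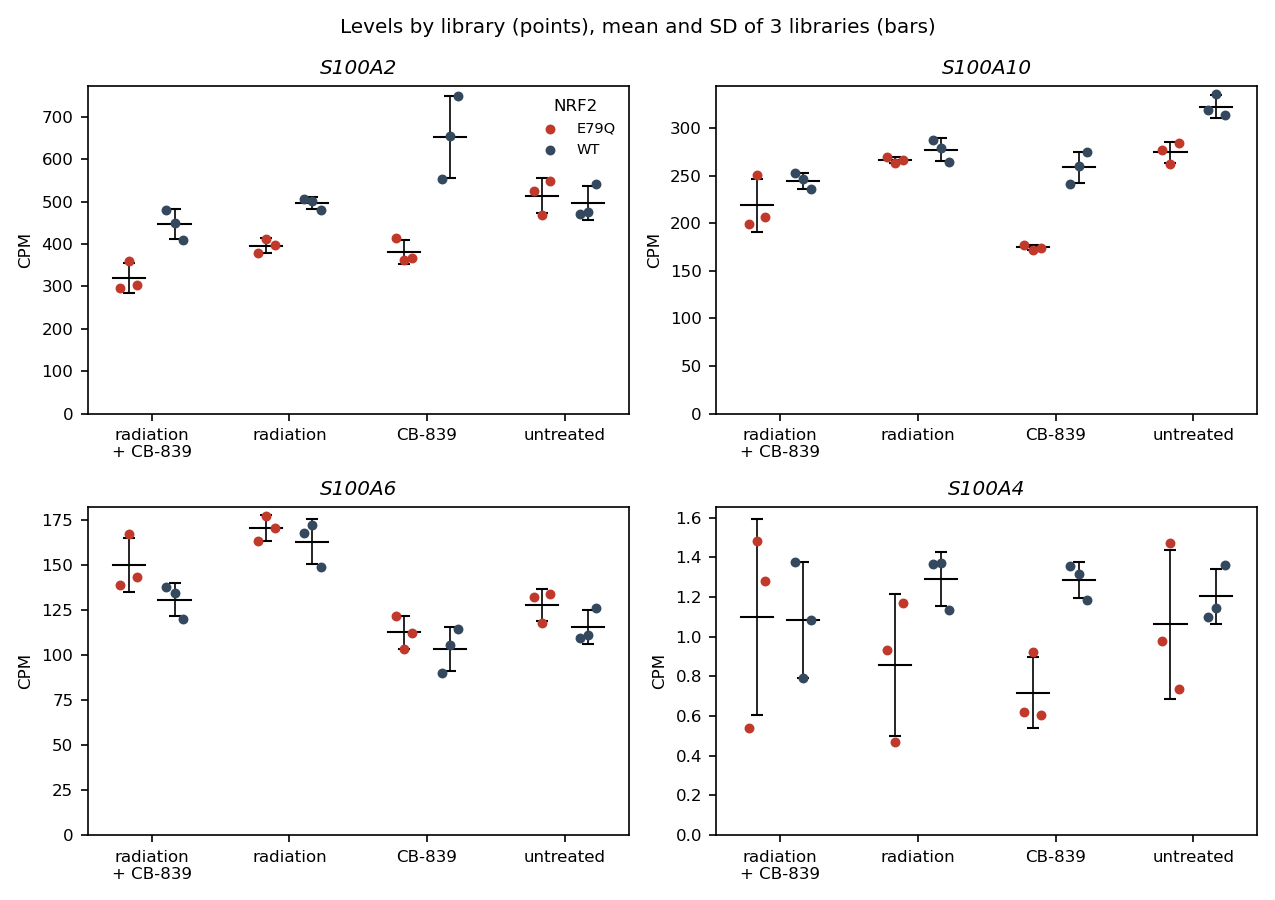
CPM of S100A2, S100A10, S100A6 and S100A4 in each library (points), with the mean and SD of 3 libraries, for E79Q cells (red) left of WT cells (dark) under 4 treatments. S100A2 reaches its highest mean, 653 CPM, in WT cells given CB-839, and S100A6 is higher in both irradiated columns of either genotype than in the matched unirradiated ones.

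S100A10, the annexin A2 partner that helps place plasminogen at the cell surface, was lowered by CB-839 in E79Q cells with and without radiation and in unirradiated WT cells. It had 199, 251 and 207 CPM in E79Q libraries with both treatments, where the 251 CPM belong to the GC-dependent library, and 252, 246 and 236 CPM in WT libraries. Under radiation it had 269, 263 and 266 CPM in E79Q libraries and 288, 279.6 and 264 CPM in WT libraries. Under CB-839 it had 177, 172 and 174 CPM in E79Q libraries, below the 242, 260.1 and 275 CPM of WT libraries. Untreated libraries held 277, 263 and 285 CPM in E79Q and 319, 336 and 314 CPM in WT cells, without overlap.

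The drug response of S100A10 was -0.28 in E79Q cells (adjusted p = 0.00193) and -0.18 in WT cells (adjusted p = 0.0749) with radiation, and -0.65 in E79Q cells (adjusted p = 3.04e-08) and -0.32 in WT cells (adjusted p = 0.000864) without it. E79Q minus WT, the unirradiated response differed by -0.33 (SE 0.0914, adjusted p = 0.0129). The irradiated WT response was called without the GC-dependent library (adjusted p = 0.0106) and with the 2 groups alone (0.0261), and the irradiated E79Q response was -0.39 without that library (adjusted p = 2.4e-06) and lost its call with the 2 groups alone (0.0749). E79Q over WT was -0.57 under CB-839 (adjusted p = 2.3e-07) and -0.23 in untreated cells (adjusted p = 0.00996). The call in untreated cells was lost without replicate 2 of untreated WT or of untreated E79Q cells (adjusted p = 0.0626 and 0.0684). With both treatments it was -0.16 (adjusted p = 0.145), and -0.28 without the GC-dependent library (adjusted p = 0.000468).

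Radiation gave S100A10 0.33 in E79Q cells given CB-839 (adjusted p = 0.000515) and -0.08 in WT cells given it (adjusted p = 0.401), with a called difference of 0.41 (SE 0.0915, adjusted p = 0.0212). Without the GC-dependent library the response in E79Q cells was 0.22 (adjusted p = 0.00379) and the difference 0.29 (adjusted p = 0.0341). That difference was lost with the 4 groups fitted alone (adjusted p = 0.21), and without replicate 2 or 3 of WT cells given CB-839 (0.0554 and 0.085), of E79Q cells given it (0.0829 and 0.0681) or of WT cells with both treatments (0.0554 and 0.0817). Without drug, radiation gave -0.04 in E79Q cells (adjusted p = 0.677) and -0.22 in WT cells (adjusted p = 0.0173). The WT call was lost without replicate 2 of untreated (adjusted p = 0.0894) or replicate 3 of irradiated WT cells (0.0969). ANXA2, its annexin partner, was higher with radiation in all 4 settings, among them 2235 CPM in irradiated and 1835 CPM in untreated E79Q cells (0.28, adjusted p = 8.13e-06).

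S100A6, calcyclin, was raised by radiation in all 4 settings and called between the genotypes in none. Under the combined treatment it had 139, 167 and 143 CPM in E79Q libraries and 137, 134 and 120.1 CPM in WT libraries. Under radiation it had 163, 177 and 170.4 CPM in E79Q libraries and 168, 172 and 149 CPM in WT libraries. Under CB-839 it had 122, 103 and 112 CPM in E79Q libraries and 89.9, 105 and 114 CPM in WT libraries. Untreated libraries held 132, 117 and 134 CPM in E79Q and 109, 111 and 126 CPM in WT cells. Irradiated libraries stood above the matched unirradiated ones in each of the 4 pairs.

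Radiation raised S100A6 by 0.41 in E79Q and 0.34 in WT cells given CB-839 and by 0.41 in E79Q and 0.50 in WT cells without it (adjusted p = 0.000773, 0.00498, 0.000745 and 0.000119). Without the GC-dependent library the response in E79Q cells given CB-839 was 0.33 (adjusted p = 0.00359). The 0.34 lost its call without replicate 1 of the WT cells given CB-839 (0.26, adjusted p = 0.0518). Between genotypes it differed by 0.07 with drug (SE 0.122, adjusted p = 0.897) and -0.08 without (SE 0.121, adjusted p = 0.879). CB-839 lowered S100A6 in irradiated WT cells by -0.32 (adjusted p = 0.0185), a call lost without replicate 1 or 2 of irradiated WT cells (adjusted p = 0.0899 and 0.101) or replicate 3 of those with both treatments (0.114). In E79Q cells the drug gave -0.18 with radiation (adjusted p = 0.115), called without the GC-dependent library (0.0221), and -0.18 without radiation (adjusted p = 0.142), called without a filter (0.0362) and with the 2 groups alone (0.0268).

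S100A4, a motility-linked S100 protein of mesenchymal cells that binds myosin, was barely expressed, with 0.467 to 1.48 CPM and 9 to 32 reads in a library. It was called in 0 of the 16 comparisons by edgeR, and its largest fold change between groups, E79Q over WT under CB-839, was -0.84 (SE 0.374, adjusted p = 0.148). Without replicate 1 of the E79Q cells with both treatments, its radiation response in E79Q cells given CB-839 was called (0.95, adjusted p = 0.0478; 0.64 and 0.207 with it). At this depth changes of the size seen for S100A6 could not be told from the spread.

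**Figure D5:**
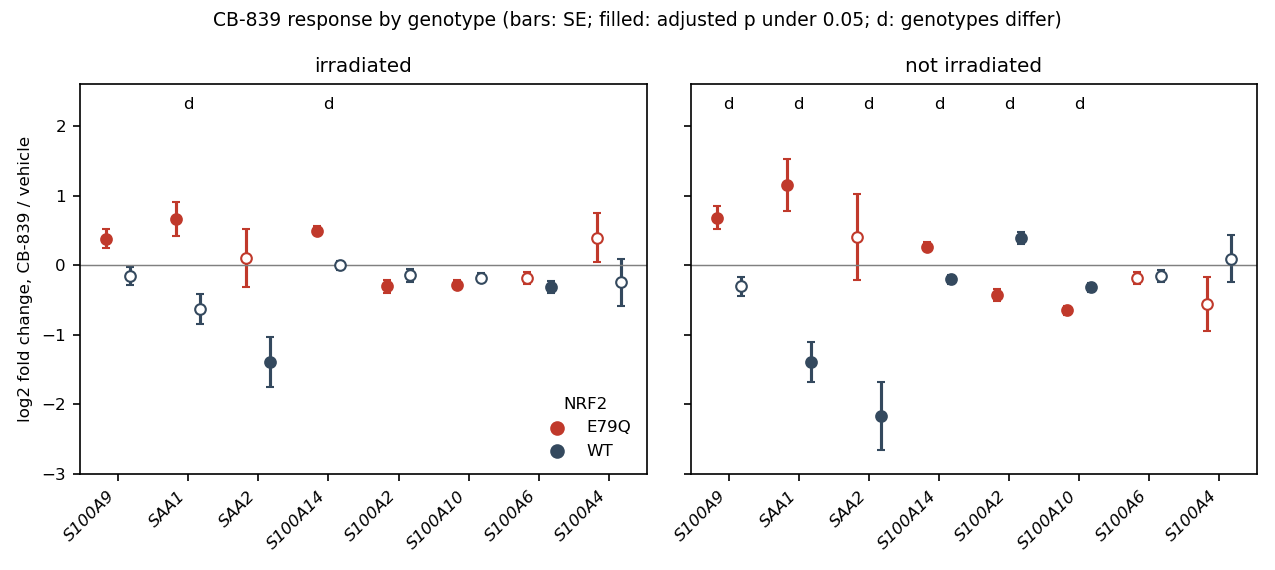
Log2 fold change of CB-839 over vehicle with its standard error for the 8 members tested, in irradiated (left) and unirradiated cells (right), with E79Q in red left of WT in dark, filled where the adjusted p is under 0.05 and with a d where the genotype difference was called. In unirradiated cells SAA1 is at 1.15 in E79Q and -1.40 in WT cells, and S100A2 is at -0.43 in E79Q and 0.39 in WT cells.

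Among 13 other S100 genes, 5 were tested. In E79Q against WT cells, edgeR called 0 of the 5 under each treatment, DESeq2 and limma-voom likewise called 0 in untreated cells, and 1 had an unadjusted p under 0.05 there. Over all genes 7.26% were called with both treatments, 9.64% under radiation, 15% under CB-839 and 19.7% in untreated cells. With 5 genes, 0 calls does not set them apart from these shares. CB-839 called 1 lower in unirradiated E79Q cells, beside 10.4% of all genes. The genotype difference in that response was called negative for 1, beside 6.83%. In cells given CB-839, radiation called 2 of the 5 higher in E79Q and 1 in WT cells, beside 15.3% and 13.2% of all genes. Without drug it called 0 in E79Q and 0 in WT cells, beside 22.3% and 17.9% called either way. S100A16, a widely expressed S100 protein, was raised by radiation in cells given CB-839, at 336 CPM with radiation and 253 CPM without in E79Q cells (0.41, adjusted p = 7.31e-05), and at 339.6 and 284 CPM in WT cells (0.26, adjusted p = 0.00677). Of 19 partners and receptors, 14 were tested, and their median genotype change was 0.01 in untreated cells beside -0.01 over all genes. E79Q over WT, 1 was called higher and 1 lower with both treatments, beside 4.4% and 2.86% of all genes. Under radiation 1 was higher and 1 lower, beside 4.69% and 4.95%. Under CB-839 1 was higher and 4 lower, beside 8.3% and 6.72%. In untreated cells 3 were higher and 1 lower, beside 9.62% and 10.1%. TLR4, a receptor for extracellular S100A8, S100A9 and SAA proteins, was higher in E79Q cells under every treatment. It averaged 23.5 CPM in E79Q and 12.0 CPM in WT cells with both treatments (0.97), 33.7 and 11.9 CPM under radiation (1.51), 22.1 and 5.78 CPM under CB-839 (1.93), and 16.2 and 2.93 CPM in untreated cells (2.47, adjusted p between 2.11e-11 and 1.51e-05).

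Over the 8 group means of log2 CPM, S100A9 and SAA1 went together (Pearson's r = 0.953), as did SAA1 and SAA2 (r = 0.932), and S100A9 and SAA2 had r = 0.812. S100A6 and S100A2 had r = -0.491. The gene most like S100A9 among 11792 candidates was ADGRE2, an adhesion receptor of myeloid cells (r = 0.990), that most like SAA1 was LRG1, an acute-phase glycoprotein (r = 0.989), and that most like S100A14 was IGFBP3, an insulin-like growth factor binding protein (r = 0.985). DYSF was most like S100A6 (r = 0.980), KLF5 most like S100A10 (r = 0.974), TRABD2A most like S100A2 (r = 0.967), RPL32 most like S100A4 (r = 0.962) and SLC25A29 most like SAA2 (r = 0.985). These describe 8 points each, chosen as the highest of many, and the groups share genotypes and treatments.

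In order of group means, S100A9 stood highest in irradiated WT cells and lowest in untreated E79Q cells. Its 5 highest groups each overlapped the next. WT cells given CB-839, the sixth, lay apart from E79Q cells given CB-839, and these from untreated E79Q cells. SAA1 was highest in irradiated WT cells, apart from the next group, and lowest in untreated E79Q cells, apart from WT cells given CB-839. S100A14 placed the 4 WT groups above the 4 E79Q groups, with untreated WT cells apart at the top and the other WT groups overlapping. Below them E79Q cells with both treatments stood apart from those with CB-839, and these from untreated and irradiated E79Q cells, which overlapped. S100A2 had its top and bottom groups, WT cells given CB-839 and E79Q cells given both treatments, apart from their neighbours, and the 6 between them each overlapped the next. All 8 groups of S100A4 overlapped their neighbours.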

How the data were processed

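The authors deposited 1 table of raw read counts per gene for 24 libraries, with a gene length column of no stated use, which served here for levels per kilobase. STAR, HTSeq and GRCh38 are named in the submitters' processing notes without role or version, and strand handling is not given in the sources used here. Counts were tested in R 4.3.3 with edgeR 4.0.16 (quasi-likelihood test, 2-sided, TMM factors, 1 mean per group over all 24 libraries, residual df 16). The filter of edgeR (minimum count 10, minimum total 15) left 15956 of 34983 genes with any read, and p-values were adjusted by Benjamini-Hochberg over these in each of 16 comparisons and called at 0.05. Printed CPM use TMM-scaled library sizes. Between single groups an exact test of 3 against 3 libraries could not go below p = 0.1. The groups therefore share 1 estimate of each gene's spread, which edgeR moderates across genes. Alternatives used DESeq2 1.42, limma 3.58.1 (voom), other size factors and filters, only the groups compared, a replicate block, and each library left out in turn. The members and lists were chosen with earlier results of these data known. Genes of a list were named from the up to 3 with the smallest p in each direction among those called, and genes alike a member by the highest correlation over group means among those with a mean log2 CPM of at least 1. The permutation tests of S100A8 and S100P were chosen after their counts were seen.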

Additional observations from a re-analysis of the deposited data

Results flagged for a closer look

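Without radiation, the response to CB-839 differed between E79Q and WT cells (E79Q minus WT, log2 scale, edgeR interaction term) for 6 members. The difference was 2.55 for SAA1, 2.57 for SAA2, 0.99 for S100A9, 0.47 for S100A14, -0.33 for S100A10 and -0.83 for S100A2. With radiation it was 1.29 for SAA1 and 0.49 for S100A14. The response to radiation in cells given CB-839 differed by 0.41 for S100A10. The calls for SAA2, for SAA1 with radiation and for this last S100A10 difference were each lost without some single libraries. Those for S100A14 were kept under all alternatives run. What lies behind these differences was not tested.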

How the results depend on the processing

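Of 4206 member fold changes under alternatives, 99 lost their call, 32 gained one and 0 changed sign as called values. Values not called at first could not lose a call, and many fits left out a library outside the comparison. The fit without the GC-dependent library was counted under 2 settings. The 4206 is therefore no base for a rate of lost calls. DESeq2-type size factors moved 0 of 128 calls, DESeq2 itself 1 and limma-voom 4. Members called in E79Q against WT with both treatments numbered 4 instead of 2 without the GC-dependent library, replicate 2 of E79Q cells with both treatments (range 2 to 4 over single libraries left out). Radiation in WT cells without drug called 6, with a range of 3 to 6 over libraries left out. CB-839 in irradiated E79Q cells called 5, against 2 with its groups fitted alone (range 3 to 5). In irradiated WT cells it called 2, against 1 when genes needed 1 CPM in 12 libraries, which drops SAA2, 4 with its groups alone and 4 without the GC-dependent library (range 1 to 4). The genotype difference in radiation response without drug was called for 0 members, against 2 without a filter, 2 with its groups alone and 2 without that library (range 0 to 2). With drug it was 1, against 2 without a filter and 0 with its groups alone (range 0 to 1). The difference in CB-839 response with radiation was 2, against 1 with its groups alone (range 1 to 2). The cause was not tested beyond the libraries or genes each setting leaves out.

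Over all genes, fitting the groups alone gave 3081 calls instead of 1538 for genotype under radiation, 234 instead of 1159 with both treatments, 4322 instead of 2855 for radiation in WT cells, 1667 instead of 4667 for radiation in E79Q cells given CB-839, 1601 instead of 4141 for CB-839 in irradiated E79Q cells, and 611, 40 and 132 instead of 201, 172 and 305 for the differences in radiation response without and with drug and in CB-839 response with radiation. With single libraries left out, counts moved both ways. Genotype with both treatments had 740 (without replicate 3 of WT cells with both) to 1639 (without replicate 1 of E79Q cells with both). Radiation in E79Q cells given CB-839 had 3073 (without the GC-dependent library) to 5683 (without replicate 1 of that group). CB-839 in irradiated WT cells, 1520 with all libraries, had 638 (without replicate 1 of WT cells with both) to 2832 (without the GC-dependent library). The difference in radiation response had 107 (without replicate 1 of irradiated WT cells) to 381 (without the GC-dependent library) without drug, and 92 (without replicate 2 of E79Q cells given CB-839) to 252 (without replicate 1 of E79Q cells with both) with it. The difference in CB-839 response with radiation had 145 (without replicate 1 of irradiated E79Q cells) to 545 (without replicate 1 of E79Q cells with both), and 468 without the GC-dependent library. The replicate numbers did not pair libraries, since 4 of 24 correlated best with their own number and 0 of 84 same-number pairs exceeded r = 0.1. With a replicate block 127 of 128 member calls stayed, and the SAA1 response to CB-839 in irradiated E79Q cells was 0.67 (edgeR adjusted p = 0.0513). Depth limits S100A4, SAA2, S100A8 and S100P most, and SAA1 in untreated E79Q cells.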

Other observations

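Reads of SAA1 per read of SAA2 numbered 4.64 in E79Q and 4.28 in WT cells with radiation plus CB-839, 3.06 in E79Q and 2.54 in WT cells with radiation, 3.88 in E79Q and 4.13 in WT cells with CB-839, and 2.29 in E79Q and 2.39 in WT untreated cells. These are summed reads with no test. Single libraries with and without CB-839 overlapped in this ratio in all 4 pairs, and the 4.13 was 8.4 without replicate 1 of the WT cells given CB-839, whose SAA2 reads were 10, 0 and 5. S100A9 and S100A8 had 976 and 8 reads in E79Q cells and 1173 and 14 reads in WT cells with both treatments, 769 and 4 in E79Q and 1237 and 6 in WT cells with radiation, and 418 and 1 in E79Q and 633 and 9 in WT cells with CB-839.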
